A study of Mus musculus with 21 samples.

Results

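The genes of the cytosolic ribosomal proteins were followed in mouse hematopoietic stem cells (HSCs). Members were taken by symbol, as those that join Rpl or Rps to a number (with a last letter a, x or l allowed), the stalk genes Rplp0, Rplp1 and Rplp2, and Rpsa. The rule found 81 of the 21000 genes in the table, 50 of the large subunit and 31 of the small subunit. RNA sequencing covered 21 libraries in 7 groups of 3, all of wild-type mice. In 2 groups, mice that were 10 weeks old at the start received PBS or 5-fluorouracil (5-FU, 150 mg/kg intraperitoneally) once, and HSCs were isolated at day 6, 5 days later (PBS-1 and 5FU-1). In 2 further groups PBS or 5-FU was given 3 times at intervals of 21 days, again with isolation at day 6 after the last administration (PBS-3 and 5FU-3). Mice given 5-FU once or 3 times were also studied at day 21, 20 days after the last administration, and untreated old mice were 2 years old. PBS-treated mice were studied at day 6 alone, so no control had the time of the day 21 groups.

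5-FU is a cytotoxic drug that blocks thymidylate synthesis, is built into RNA and drives HSCs into the cell cycle. A ribosome joins a small subunit, which decodes the mRNA, to a large subunit, which forms the peptide bond, and each holds ribosomal RNA and 1 copy of most of its proteins. The mRNAs of these proteins begin with a tract of pyrimidines (the TOP motif) through which mTOR, acting on the binding protein LARP1, controls their translation. Dormant HSCs are known for a low rate of protein synthesis. Loss of 1 allele of several of these genes causes Diamond-Blackfan anaemia, and free Rpl5 and Rpl11 proteins bind Mdm2 and thereby stabilise p53.

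Each library came from 3000 to 3500 sorted HSCs, and the study describes 3 biological replicates from pooled samples. Library totals ranged from 22184885 to 38649033 counts, with 22184885 to 26263228 in PBS-1, 23395821 to 27771296 in 5FU-1 day 6, 27023725 to 31724107 in PBS-3 and 31358819 to 38649033 in 5FU-3 day 6. For 5-FU-treated mice at day 6 the gate had been widened to c-Kit-dim cells and the Mac-1 antibody left out. All 14 HSC markers examined (Kit, Ly6a, Slamf1, Procr and others) were detected. Their summed level was 5625–6006 CPM (counts scaled to a common library total) in PBS-1, 4331–4383 in 5FU-1 day 6, 5446–5685 in PBS-3 and 3705–3963 in 5FU-3 day 6. In these bulk samples, fewer cells of a type and less RNA per cell cannot be told apart.

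The members fell into 2 classes by how their counts were related to library depth, a split made after the counts were seen. One class had 1 curated RefSeq transcript (60 members, 38 large and 22 small) and the other had 2 or more (21 members, 12 large and 9 small). Among the 58 members of the first class with a mean of at least 100 counts, the highest count over the 21 libraries was 1.09 to 2.07 times the lowest, with a median of 1.21. Among the 20 such members of the second class it was 1.69 to 2.68 times, with a median of 2.03, against 1.74 for the library totals. Rps14, a small subunit gene lost in the 5q- syndrome, held between 686 and 774 counts in every library whatever its depth. Rps27l, by contrast, held between 2433 and 6522 counts.

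A reference for these counts is the number of positions at which a 75-base read can start on the longest transcript, taken over both strands. Only 3 of the 60 members with 1 curated transcript, Rpl37 and Rps23 among them, ever exceeded this number, whereas 20 of the 21 others did. The highest count of those 20 was 1.41 to 26.0 times the number, with a median of 6.78. The same held over the table for genes with a mean of at least 300 counts, of which 99 of 3909 with 1 curated transcript (2.53%) and 1606 of 5252 with 2 or more (30.6%) exceeded it. The slope of the log2 count on the log2 library total had a median of 0.232 in the first class and 0.913 in the second, where 1 means that counts grew in proportion to depth. In the first class 5 members had a slope over 0.5, among them Rpl32l, Rpl37, Rps13 and Rps23. Whether duplicate reads or reads with several alignments were removed is not given in the sources used here, and the origin of the pattern was not tested. Where the counts of a member did not grow with depth, its CPM fell as depth rose, so the counts of members called are given apart for the 2 classes below.

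**Figure D1:**
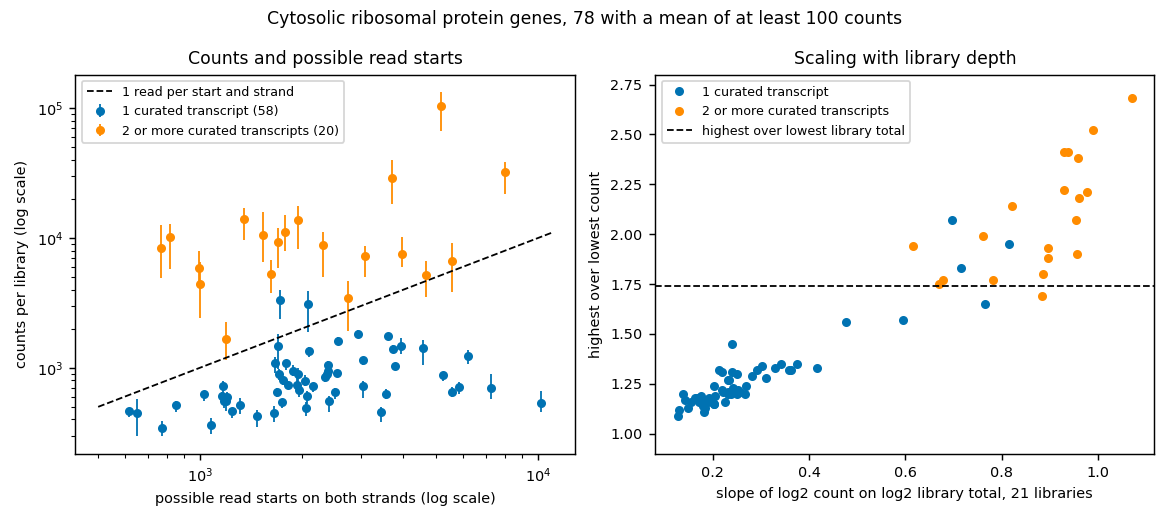
The left panel plots counts per library (log scale; point, mean of 21 libraries; bar, lowest to highest) against the number of possible read starts (log scale), and the right panel plots the highest over the lowest count against the slope of log2 count on log2 library total, for the 78 members with a mean of at least 100 counts. The 20 members with 2 or more curated transcripts reached counts above the dashed line of 1 read per start and strand, and most of the 58 with 1 curated transcript lay below it and to the left at slopes under 0.5.

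The members with 2 or more curated transcripts held 85.0% of all member counts. Rps19, the gene most often mutated in Diamond-Blackfan anaemia, alone held 29.5%, ahead of Rps24 (9.25%) and Rpl15 (8.24%). Per kilobase of the longest transcript, Rps19 was also highest with a mean of 38988 counts per kilobase, followed by Rps21 with 21158, Rpl19 with 18787, Rpl38 with 18398 and Rpl15 with 15047. At the other end were Rps20 with 189 and Rps15a with 104, both with 1 curated transcript, so this order follows the counting class and cannot be read as an order of mRNA levels. Rpl10l, a paralogue of Rpl10 known from testis, had 0 counts in every library, where a library at 0 could hold up to 0.0776 to 0.135 CPM (3 counts, counting error only). Rpl3l, a paralogue of Rpl3 known from striated muscle, had at most 22 counts, and Rpl39l, a paralogue of Rpl39, had at most 7. These 3 members did not pass the filter on low counts of edgeR (filterByExpr), and the other 78 were tested in every comparison. Ribosomal protein genes have many processed pseudogenes, and how reads shared with them were counted is not given, so every level here carries that uncertainty.

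After 1 administration of 5-FU, members with 2 or more curated transcripts were higher in HSCs at day 6 than in PBS-treated HSCs. Differences were tested by quasi-likelihood in edgeR, with p-values adjusted by the Benjamini-Hochberg method across every gene kept and a threshold of 0.05, so that p-values measure the spread between these libraries. Of the 78 members, 17 were higher and 0 lower, whereas over all 12759 genes tested 11.5% were higher and 10.6% lower. At an unadjusted p under 0.05, 21 members differed, and DESeq2 called 19 higher and 0 lower. The calls were 15 of the 20 members with 2 or more curated transcripts, against 14.3% higher among all genes of that kind, and 2 of the 58 with 1, among them Rpl37. The median log2 fold change was 0.35 over these 20 members and −0.03 over the other genes of their kind. Over the 58 members it was 0.10, and over the other genes with 1 curated transcript 0.02. The count was 10 without PBS-1 replicate 2 and also 10 without 5FU-1 day 6 replicate 3.

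Of the 11 large subunit members with 2 or more curated transcripts, 9 were higher, with a median log2 fold change of 0.36. Levels are given as normalized CPM, in which library sizes were scaled by TMM over the 21 libraries. Rpl29, a large subunit protein also known to bind heparin, had 308, 303 and 344 normalized CPM in PBS-1 and 435, 517 and 526 in 5FU-1 day 6. The groups did not overlap, and the log2 fold change was 0.62 (SE 0.09, edgeR adjusted p = 0.0057). Rpl35a, which is needed to mature the large subunit RNA, had 181, 184 and 198 against 283, 274 and 275 normalized CPM. Its log2 fold change of 0.55 (SE 0.06, edgeR adjusted p = 0.00243) came with no overlap either. Rpl38, known for its part in the translation of Hox mRNAs, had 236, 220 and 263 against 347, 340 and 370 normalized CPM, a log2 fold change of 0.55 (SE 0.08, edgeR adjusted p = 0.00545).

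Rpl34, a protein of the large subunit, had 243, 240 and 256 normalized CPM in PBS-1 and 361, 337 and 370 in 5FU-1 day 6, a log2 fold change of 0.52 (SE 0.06, edgeR adjusted p = 0.0031). Rpl15, a core protein of the large subunit, had 866, 883 and 889 against 1107, 1199 and 1108 normalized CPM, a log2 fold change of 0.36 (SE 0.05, edgeR adjusted p = 0.0057). In both, every 5-FU library lay above every PBS library. Rpl31, Rplp2, Rpl30 and Rpl19 were also higher, with log2 fold changes of 0.38, 0.34, 0.31 and 0.22. Rplp2 encodes an acidic protein of the stalk that recruits elongation factors, and Rpl19 a protein of the bridge between the subunits. The 2 large subunit members of this kind that did not pass were Rpl10a (0.10) and Rpl22 (0.07), the latter known for its role in T-cell development.

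Of the 9 small subunit members with 2 or more curated transcripts, 6 were higher, with a median log2 fold change of 0.34. Rps27l, a paralogue of Rps27 known as a target gene of p53, had the highest fold change of the 78 members. It had 121, 118 and 125 normalized CPM in PBS-1 and 188, 233 and 225 in 5FU-1 day 6, with no overlap. The log2 fold change was 0.81 (SE 0.09, edgeR adjusted p = 0.00257). Rps21, Rps28, Rps27a, Rps15 and Rps24 were higher by log2 fold changes of 0.42, 0.40, 0.36, 0.34 and 0.27. Rps27a is made as a fusion with ubiquitin, and Rps28 and Rps24 are Diamond-Blackfan genes.

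The 3 small subunit members of this kind that did not pass were Rps10 (0.24), Rps19 (0.06) and Rps27 (−0.06). Rps19 had 3302, 3219 and 3538 normalized CPM in PBS-1 and 3504, 3390 and 3626 in 5FU-1 day 6, groups that overlap. Rps27, a zinc-finger protein of the small subunit, had 54.6, 51.0 and 55.0 against 53.8, 47.8 and 53.2 normalized CPM and overlapped as well. Of the paralogue pair, Rps27l thus passed and Rps27 did not, both in the same counting class, and their ratio is given below.

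Among members with 1 curated transcript, Rpl37, a large subunit protein known to bind Mdm2, had 46.3, 43.4 and 47.5 normalized CPM in PBS-1 and 60.5, 52.6 and 58.3 in 5FU-1 day 6, a log2 fold change of 0.31 (SE 0.08, edgeR adjusted p = 0.0349). It belongs to the few of that class whose counts grew with depth. Members known from signalling lay in the class with little growth and did not pass: Rpl5 (0.17), Rpl11 (0.11), Rps6 (0.04), which is phosphorylated by S6 kinase, Rps14 (0.04) and Rplp0 (0.05), the base of the stalk. Of the 3 stalk genes only Rplp2 was higher, and Rplp1 was at 0.10. Rplp2 had 2 or more curated transcripts and a slope of log2 count on log2 library total of 0.956. Rplp0 and Rplp1 had 1 curated transcript and slopes of 0.203 and 0.219. The contrast within the stalk therefore cannot be told apart from the counting class. The 4 X-linked members, Rpl10 (0.08), Rpl36a (0.16), Rpl39 (0.21) and Rps4x (0.04), did not pass.

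**Figure D2:**
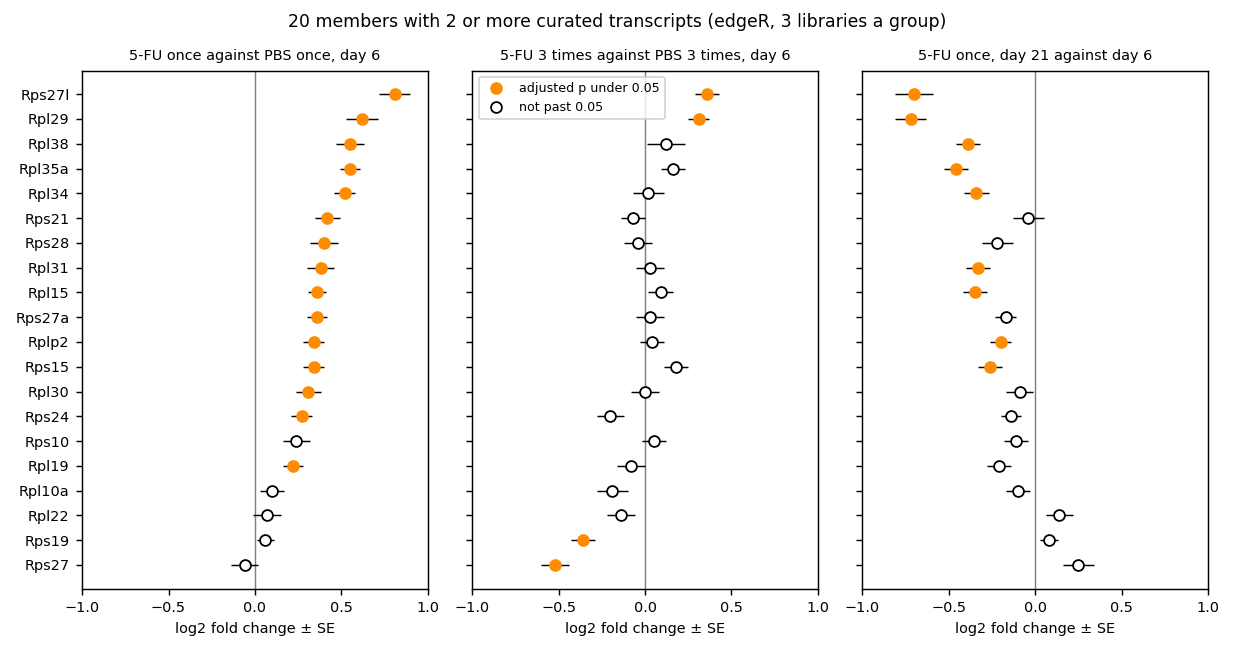
Log2 fold change ± SE (x axis) of the 20 members with 2 or more curated transcripts (y axis) in 3 comparisons of 3 libraries with 3, with filled points for edgeR adjusted p under 0.05. After 1 administration 15 points were filled and positive, after the third administration 2 were positive (Rps27l and Rpl29) and 2 negative (Rps19 and Rps27), and from day 6 to day 21 9 were negative.

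The starts of 6 genes are shown because they carry the largest changes (Rps27l, Rpl38, Rpl35a and Rpl34), a large share of counts (Rpl15) or the paralogue that did not follow (Rps27). Each window holds 17 bases before and 13 after the start annotated by RefSeq on GRCm38.p6, 5′ to 3′ on the strand of the gene, and capitals mark the longest pyrimidine run that lies within 5 bases of it. Where the table gave several starts (2 for Rps27l and Rpl34, 3 for Rpl35a), the one with the longest run is shown. The windows lie at chr9:66946069-66946098 (plus strand, Rps27l), chr11:114668563-114668592 (plus, Rpl38), chr16:33056465-33056494 (plus, Rpl35a), chr3:130730325-130730354 (minus, Rpl34), chr14:18270974-18271003 (minus, Rpl15) and chr3:90213636-90213665 (minus, Rps27).
Rps27l: ctccaCTCCTCCCCgccgcctctatcccgg
Rpl38: gaagcggaagcctcgTTCTTTCCCCgttct
Rpl35a: cggcggggcttgCCTTCCTCTTTCCgccat
Rpl34: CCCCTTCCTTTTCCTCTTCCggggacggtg
Rpl15: ttgtgggagaaagCCTTCTTCCTTTCCTCT
Rps27: ggatttccgctttcgCTCCTTTCCggcggt
The marked runs spanned the annotated start in Rpl38, Rpl35a, Rpl34, Rpl15 and Rps27. In Rps27l the marked run ended before the start, and a shorter run of pyrimidines followed just after it. The run of Rps27 was 9 bases long, as was that of Rps27l, and those of Rpl38, Rpl35a, Rpl15 and Rpl34 were 10, 13, 17 and 20 bases long.

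The promoter table held 61 of the 81 members, and Rpl29 was not among them. A run of at least 5 pyrimidines within 5 bases of the start was found in 35 of the 61 (57.4%) and in 36.7% of all 27025 genes of the table. A gene counted if any of its starts had a run, and members with 2 or more curated transcripts had more starts in the table. They held a run in 13 of 18 genes but in 15 of 30 starts, against 22 of 43 (51.2%) for members with 1 curated transcript and 32.9% of all starts. In the window from 250 bases before to 50 after the start, CCGGAA, the core of sites of GABP and other ETS factors, lay on either strand in 33 of 61 members (54.1%) and in 16.7% of all genes. AAGATGG, found in YY1 sites, lay in 9 members against 7.28% of genes, TGACGTCA, the cyclic AMP response element, in 5 against 2.03%, and TATAAA in 7 against 15.7%. All 4 were sought on both strands, none of them contains another, and the reverse complement of CCGGAA can overlap a run of pyrimidines. A match is a description of letters only.

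After the third administration, few members differed at day 6. Of 78 members, 2 were higher and 2 lower in 5-FU-treated HSCs, whereas over all 12729 genes tested 9.84% were higher and 8.30% lower. All 4 had 2 or more curated transcripts, a kind in which 12.9% of genes were higher and 10.2% lower. The median log2 fold change was 0.02 over the 20 members and −0.08 over the 58 with 1 curated transcript, among which 0 passed in edgeR and 0 had an unadjusted p under 0.05. DESeq2 called 4 members higher and 3 lower.

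Rps27l had 138, 150 and 149 normalized CPM in PBS-3 and 193, 191 and 185 in 5FU-3 day 6, a log2 fold change of 0.36 (SE 0.07, edgeR adjusted p = 0.0165). Rpl29 had 367, 332 and 352 against 438, 438 and 449, a log2 fold change of 0.31 (SE 0.06, edgeR adjusted p = 0.0195). Neither overlapped with its control. Rps27 had 64.7, 69.5 and 68.4 against 49.1, 50.2 and 44.5, a log2 fold change of −0.52 (SE 0.08, edgeR adjusted p = 0.00845). Rps19 had 4096, 4100 and 4169 against 3412, 3404 and 2943, a log2 fold change of −0.36 (SE 0.07, edgeR adjusted p = 0.0140). Both lay below their control in every library, and the call of 2 lower members held with each library left out.

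The 2 rises were less firm. They lost their call with library size alone as the scaling, which moved the median log2 fold change of all genes to −0.11 and left Rps27l at 0.26 and Rpl29 at 0.21. Fewer passed when a library was left out, with 0 without 5FU-3 day 6 replicate 1, 1 without replicate 3 of that group, and 1 without any single PBS-3 library. Rpl38 (0.12), Rpl35a (0.16) and Rpl34 (0.02), which had risen after 1 administration, did not pass here, and Rpl34 turned to −0.08 with library size alone. Rps27rt, a near-identical retrogene copy of Rps27 outside the symbol rule, had 58.3, 62.5 and 59.5 normalized CPM in PBS-3 and 41.4, 44.7 and 36.6 in 5FU-3 day 6, a log2 fold change of −0.58 (edgeR adjusted p = 0.00898). Reads of the 2 copies may not have been told apart, so the fall of Rps27 and that of Rps27rt are not separate observations.

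**Figure D3:**
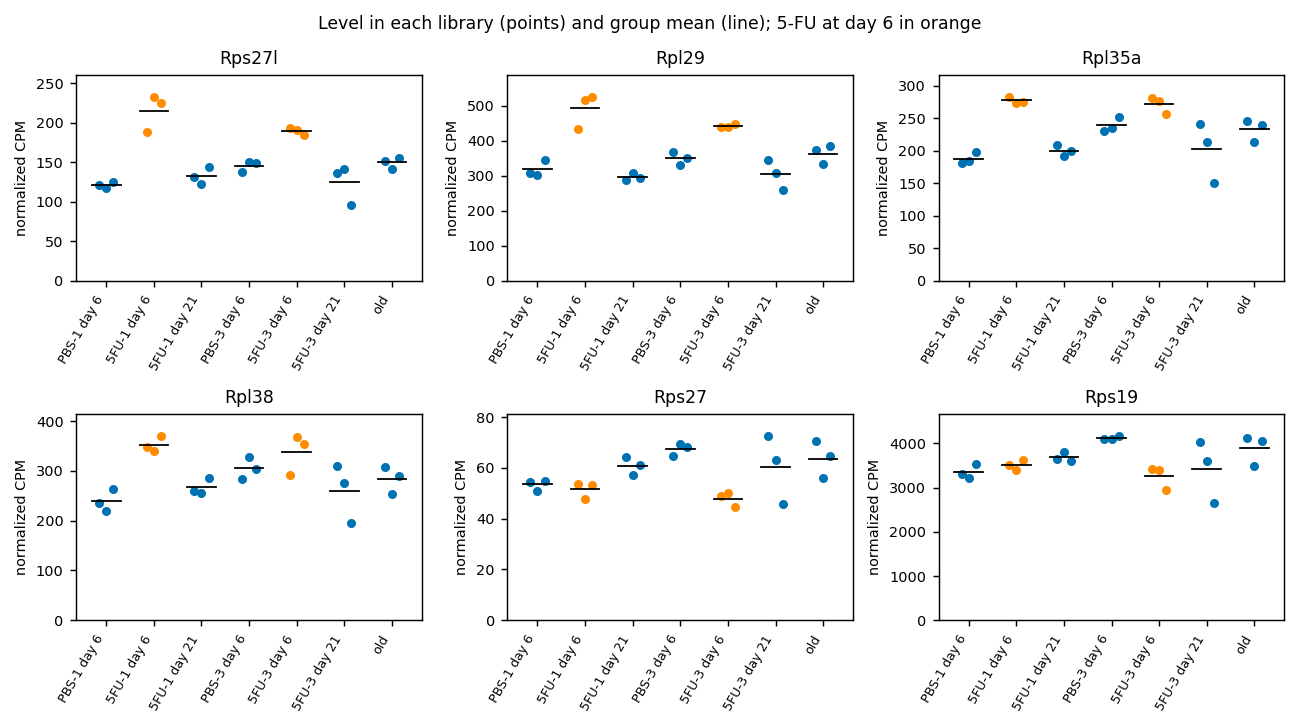
Normalized CPM (y axis) of 6 members in each library (points) with the group mean (line) over the 7 groups (x axis), 5-FU at day 6 in orange. Rps27l and Rpl29 were high in both 5-FU groups at day 6, Rpl35a and Rpl38 stood out against PBS-1 more than against PBS-3, and Rps27 and Rps19 were low in 5FU-3 day 6 relative to PBS-3.

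The difference between the 2 effects at day 6 was tested as an interaction over 12 libraries. It was negative for all 78 members, meaning a smaller rise or a larger fall after the third administration, and 0 members passed in edgeR, against 0.650% of 13227 genes in either direction. At an unadjusted p under 0.05 there were 22 members, and DESeq2 called 16, all lower. The median was −0.33 over the 20 members with 2 or more curated transcripts and −0.16 over the 58 others. Rps19 had an interaction of −0.41 (SE 0.09, edgeR adjusted p = 0.0615) and Rps27l of −0.44 (SE 0.11, edgeR adjusted p = 0.0877). With edgeR, 1 member passed without 5FU-1 day 6 replicate 1, and 2 passed without 5FU-3 day 6 replicate 2. Mean library totals were 24823656 in PBS-1, 25732871 in 5FU-1 day 6, 29936341 in PBS-3 and 34919487 in 5FU-3 day 6. Most members with 1 curated transcript had counts that hardly grew with depth, so their CPM falls as depth rises. The part of depth in the negative signs was not tested. The interaction also holds the difference between the 2 control groups, given next. It sets the day 6 groups of 1 administration, whose columns carry a suffix, against groups without it.

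PBS-3 was compared with PBS-1, groups that differ in the number of PBS administrations and in age, and also in a suffix on the column names of PBS-1 and 5FU-1 day 6 whose meaning is not stated. All 20 members with 2 or more curated transcripts had positive log2 fold changes, from 0.14 to 0.46 with a median of 0.26, whereas the 58 with 1 had a median of −0.11. In edgeR 0 members passed, against 0.0156% of 12806 genes. At an unadjusted p under 0.05 there were 19 members, and DESeq2 called 16 higher and 0 lower. Rps21 had the largest value, 0.46 (SE 0.07, edgeR adjusted p = 0.115), with 295, 265 and 277 normalized CPM in PBS-1 and 368, 376 and 408 in PBS-3. Library depth was also greater in PBS-3, and its part in these differences was not tested. Old HSCs differed little from PBS-3: the 20 members lay between −0.20 and 0.04 with a median of −0.04, 0 passed in edgeR, in DESeq2 or at an unadjusted p under 0.05, and 0.996% of 12847 genes passed.

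**Figure D4:**
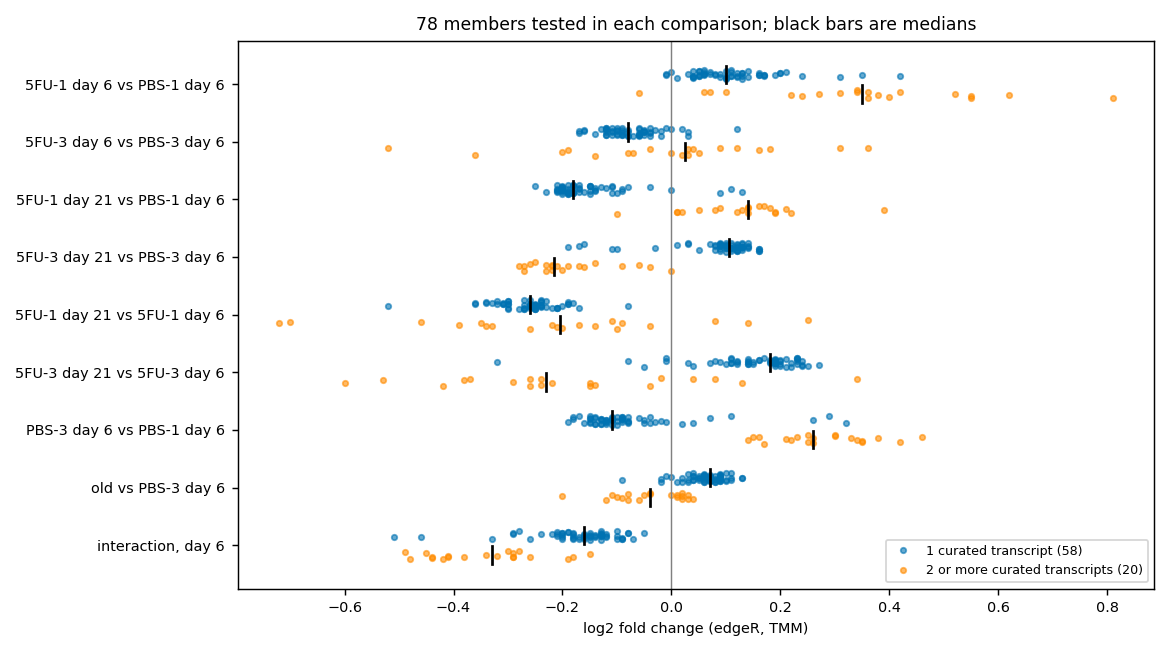
Log2 fold changes (x axis) of the 78 members tested in each comparison (y axis), in orange for the 20 members with 2 or more curated transcripts and in blue for the 58 with 1, with medians as black bars. The 2 kinds lay apart in most comparisons, with medians of 0.35 and 0.10 in 5FU-1 day 6 against PBS-1 and of 0.26 and −0.11 in PBS-3 against PBS-1.

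From day 6 to day 21 after 1 administration, some of the members fell, in a comparison that shares the day 6 libraries with the one against PBS-1. The columns of 5FU-1 day 6 carry the suffix named above and those of 5FU-1 day 21 do not. Time and whatever the suffix marks therefore cannot be told apart here. Of 78 members, 0 were higher and 10 lower, whereas 12.3% of 12589 genes were higher and 13.7% lower. Of the 10, 9 had 2 or more curated transcripts, a kind in which 13.6% of genes were lower. At an unadjusted p under 0.05, 36 members differed, 23 of them with 1 curated transcript, and DESeq2 called 14 lower and 1 higher. Rpl29 fell to 288, 308 and 294 normalized CPM, a log2 fold change from day 6 of −0.72 (SE 0.09, edgeR adjusted p = 0.00251), and Rps27l to 131, 122 and 144, a change of −0.70 (SE 0.11, edgeR adjusted p = 0.00536). Also lower were Rpl35a (−0.46), Rpl38 (−0.39), Rpl15 (−0.35), Rpl34 (−0.34), Rpl31 (−0.33), Rps15 (−0.26) and Rplp2 (−0.20). Among members higher at day 6, Rpl19 (−0.21), Rpl30 (−0.09), Rpl37 (−0.18), Rps21 (−0.04), Rps24 (−0.14), Rps27a (−0.17) and Rps28 (−0.22) did not pass. Without 5FU-1 day 21 replicate 1, the shallowest library of its group, the count of lower members over both classes was 42. It was 6 without 5FU-1 day 6 replicate 3. Only 20 of the members tested had 2 or more curated transcripts, so the 42 included members with 1. Replicates 2 and 3 at day 21 held 36669644 and 33817653 counts, against 23395821 to 27771296 at day 6. The part of depth in this count was not tested. Against PBS-1, 0 members differed at day 21 in edgeR, with 0.221% of 12647 genes called, 6 members at an unadjusted p under 0.05 and 3 higher in DESeq2. These groups differ in the suffix as well.

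After the third administration, Rps27l and Rpl29 were the 2 members lower at day 21 than at day 6, and 0 were higher, whereas 8.68% of 12553 genes were higher and 10.8% lower (14.5% lower among genes with 2 or more curated transcripts). At an unadjusted p under 0.05, 16 members differed, 12 of them with 1 curated transcript, and DESeq2 called 3 lower and 5 higher. Rps27l had 137, 141 and 95.8 normalized CPM at day 21, a log2 fold change of −0.60 (SE 0.15, edgeR adjusted p = 0.0307), and Rpl29 had 346, 307 and 259, a change of −0.53 (SE 0.11, edgeR adjusted p = 0.0168). Replicate 3 of this group lay lowest in both. That library had the smallest share of counts on members of all 21, 0.942%, and without it both genes remained lower. The number of lower members was 0 without 5FU-3 day 6 replicate 3 and 1 (Rpl29) without replicate 1 or replicate 2 of that group. Against PBS-3, 0 members differed at day 21 in edgeR (0.0475% of 12632 genes), with 1 at an unadjusted p under 0.05 and 0 in DESeq2.

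Over the 7 groups together, 11 members varied in edgeR, against 37.6% of 13571 genes. They comprised Rpl15, Rpl29, Rpl34, Rpl35a, Rpl38, Rplp2, Rps15, Rps27, Rps27a and Rps27l, with 2 or more curated transcripts, and 1 member of the other class. The count was 2 to 5 when replicate 1, 2 or 3 of every group was left out. Members followed the summed member level to different degrees: over the 21 libraries, Pearson's r between the log2 normalized CPM of a gene and that of the other members summed was highest for Rpl19 (0.95), Rps24 (0.94) and Rpl37 (0.93) and among the lowest for Rpl3 (0.20) and Rpl13 (0.21). These points share library and depth, and Rpl3 and Rpl13 had 1 curated transcript.

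Single genes that moved apart from the set were sought by scaling each library to its summed member counts, so that a log2 departure of 0 means a change equal to that of the set. In 5FU-1 day 6 against PBS-1, 5 members lay above the set and 2 below, 7 of 78 in all, while 30.6% of all genes departed in either direction. This scaling centres the members and gives other genes the shift of the set. The median over all genes was −0.24, with 472 called above and 3433 below. The share over all genes is therefore no background for the members, here or in the comparisons below. Rps27l departed by 0.58 (SE 0.10, edgeR adjusted p = 0.00691), Rpl29 by 0.39, Rpl35a and Rpl38 by 0.32 and Rpl34 by 0.29. Below the set were Rps27 at −0.30 (SE 0.08, edgeR adjusted p = 0.0237) and Rpl3, a protein close to the peptidyl transferase centre, at −0.24. Rpl3 had 1 curated transcript, a class in which 54 of 58 members departed downward, with a median of −0.13. Over the 20 members with 2 or more the median was 0.12, so the value of Rpl3 cannot be told apart from that of its counting class. The number was 2 without PBS-1 replicate 1 or without 5FU-1 day 6 replicate 3, 3 without PBS-1 replicate 2 and 4 without 5FU-1 day 6 replicate 2.

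In 5FU-3 day 6 against PBS-3, Rps27l (0.47), Rpl29 (0.43), Rps15 (0.29) and Rpl35a (0.27) lay above the set and Rps27 (−0.41) and Rps19 (−0.25) below, while 19.0% of all genes departed. Leaving out any library brought these 6 to between 1 and 3, and TMM over the members, in which Rps19 weighs less, brought them to 2. Rps27l, Rpl29, Rpl35a and Rps27 departed in the same direction after 1 and after 3 administrations, in comparisons that share no library. From day 6 to day 21 after 1 administration, groups that also differ in the column suffix, 7 members departed and 28.0% of all genes. Rps27 (0.40), Rpl22 (0.30) and Rps19 (0.24) moved up relative to the set, and Rpl29 (−0.57), Rps27l (−0.54) and Rpl35a (−0.31) were among those that moved down. The number was 3 without 5FU-1 day 6 replicate 2, and 4 without replicate 1 or replicate 3 of that group or without 5FU-1 day 21 replicate 2, and it was 1 with TMM over the members. Between PBS-3 and PBS-1, 32 members departed downward, all with 1 curated transcript, against 7.91% of all genes in either direction. This count was 0 with any library left out and 0 when the scaling was TMM over the members.

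The share of a library's counts on members was 1.15% ± 0.0711 (SD, n = 3) in PBS-1, 1.32% ± 0.0568 in 5FU-1 day 6, 1.33% ± 0.0661 in PBS-3 and 1.15% ± 0.0910 in 5FU-3 day 6. The 3 libraries of 5FU-1 day 6 (1.25% to 1.36%) lay above those of PBS-1 (1.10% to 1.24%), and the 3 of 5FU-3 day 6 (1.05% to 1.22%) below those of PBS-3 (1.28% to 1.40%). By class, members with 2 or more curated transcripts held 0.960%, 1.11%, 1.14% and 0.983% in these 4 groups, and members with 1 held 0.195%, 0.205%, 0.184% and 0.163%. For the latter, PBS-1 (0.185% to 0.214%) and 5FU-1 day 6 (0.189% to 0.220%) overlapped, as did PBS-3 (0.175% to 0.198%) and 5FU-3 day 6 (0.148% to 0.179%). The other groups had a share over all members of 1.16% ± 0.0539 (5FU-1 day 21), 1.17% ± 0.207 (5FU-3 day 21) and 1.29% ± 0.130 (old). Without Rps19, Rps24 and Rpl15 the share was 0.611% in PBS-1, 0.729% in 5FU-1 day 6, 0.677% in PBS-3 and 0.635% in 5FU-3 day 6.

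The counts of the large subunit over those of the small subunit gave a ratio of 0.760 ± 0.00645 in PBS-1, 0.838 ± 0.0126 in 5FU-1 day 6, 0.719 ± 0.0109 in PBS-3 and 0.852 ± 0.0254 in 5FU-3 day 6 (SD, n = 3). Both 5-FU groups at day 6 (0.826 to 0.851 and 0.835 to 0.881) lay above both PBS groups (0.752 to 0.765 and 0.707 to 0.728). The 2 classes went opposite ways. With 2 or more curated transcripts the ratio was 0.673 ± 0.00731 in PBS-1 and 0.770 ± 0.0202 in 5FU-1 day 6, and 0.652 ± 0.0105 in PBS-3 and 0.796 ± 0.0279 in 5FU-3 day 6. With 1 it was 1.36 ± 0.00891 and 1.31 ± 0.0295, and 1.31 ± 0.00136 and 1.28 ± 0.00764, so that both 5-FU groups (1.28 to 1.34 and 1.27 to 1.29) lay below their PBS groups (1.36 to 1.37 and 1.30 to 1.31). At day 21 the ratio over all members was 0.708 ± 0.00889 after 1 and 0.750 ± 0.0421 after 3 administrations, and it was 0.746 ± 0.00689 in old HSCs. The weight of Rps19 moved with this ratio: its share of member counts was 30.1% ± 0.0742 in PBS-1, 26.6% ± 0.247 in 5FU-1 day 6, 31.7% ± 0.761 in PBS-3 and 26.6% ± 0.810 in 5FU-3 day 6. Over members with 2 or more curated transcripts without Rps19, the ratio was 1.71 ± 0.0285, 1.74 ± 0.0452, 1.66 ± 0.0187 and 1.79 ± 0.0319 in these 4 groups. After 1 administration the groups then overlapped (1.67 to 1.73 against 1.69 to 1.78), and after 3 they did not (1.64 to 1.68 against 1.77 to 1.83).

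The paralogue pair gave a ratio in which library size cancels, chosen after the values were seen. The slope of log2 count on log2 library total was 1.07 for Rps27l and 0.616 for Rps27, so the ratio may still vary with depth. Reads of Rps27 may also be shared with Rps27rt. Counts of Rps27l over those of Rps27 were 2.28 ± 0.0512 in PBS-1 and 4.20 ± 0.692 in 5FU-1 day 6 (3.49, 4.88 and 4.23), and 2.16 ± 0.0222 in PBS-3 and 3.96 ± 0.177 in 5FU-3 day 6 (3.92, 3.81 and 4.16). It was 2.17 ± 0.168 and 2.07 ± 0.167 at day 21 after 1 and 3 administrations and 2.37 ± 0.194 in old HSCs, so that the 6 libraries of 5-FU at day 6 lay above the other 15. The 2 genes were chosen for this pattern, and no test is given.

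**Figure D5:**
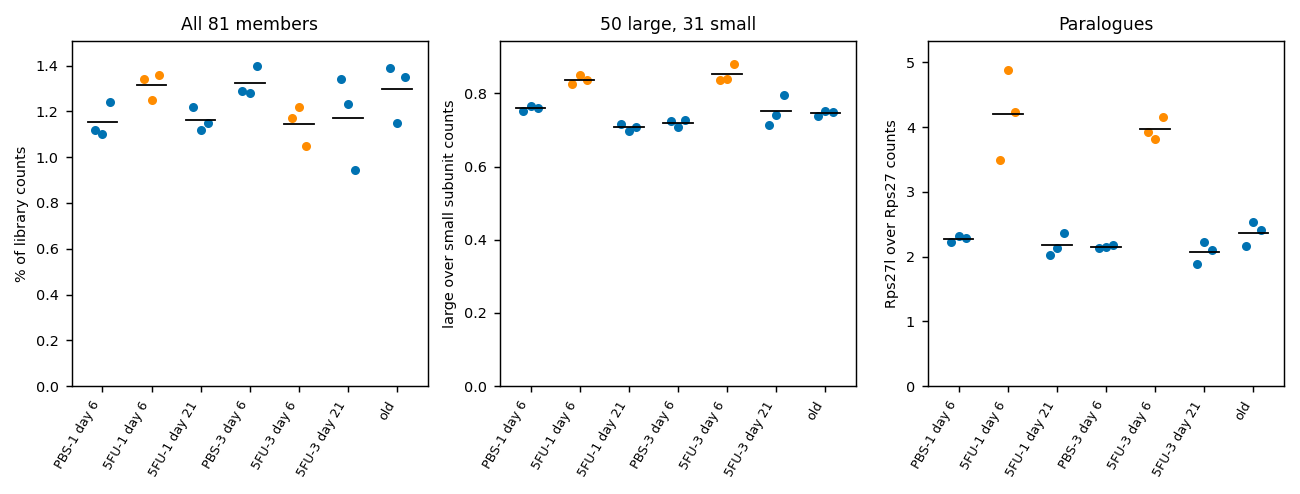
Per library (points, with group means as lines, 5-FU at day 6 in orange; x axis, the 7 groups), the y axes show the percent of counts on the 81 members, the ratio of large to small subunit counts and the ratio of Rps27l to Rps27 counts. The mean share was 1.15% and 1.32% in PBS-1 and 5FU-1 day 6 and 1.33% and 1.15% in PBS-3 and 5FU-3 day 6, whereas both ratios were higher in both 5-FU groups at day 6, the subunit ratio over both transcript classes pooled.

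Genes tied to the ribosome were read as lists. Of 17 Diamond-Blackfan genes, 5 were higher after 1 administration (Rpl35a, Rps28, Rpl31, Rpl15 and Rps24), all among the 8 with 2 or more curated transcripts, and 0 of the 9 others. Over all members, 15 of the 20 with 2 or more and 2 of the 58 with 1 were higher, so this list did not stand out. After the third administration 0 were higher and 2 lower (Rps27 and Rps19), against 2 higher and 2 lower over all 78 members. Of 9 ribosomal protein genes in the list kept for other symbols, which also holds the member Rpl41, Rpl22l1, the paralogue of Rpl22, was higher after 1 administration with a log2 fold change of 0.39 (edgeR adjusted p = 0.0115) and Rps27rt lower after 3. Fau, Rack1, Rpl36al, Rpl41, Rpl7l1 and Rps3a1 did not pass at day 6.

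Of 19 translation factors and other genes with TOP mRNAs, 6 were higher after 1 administration, 6 of the 7 with 2 or more curated transcripts and 0 of the 12 with 1. Among all genes with 2 or more, 14.3% were higher after 1 administration and 12.9% after the third. Npm1, a nucleolar chaperone of ribosome assembly, had 729, 696 and 694 normalized CPM in PBS-1 and 1191, 1309 and 1209 in 5FU-1 day 6, a log2 fold change of 0.80 (edgeR adjusted p = 0.000805). Hnrnpa1 (0.69), Eef1d (0.50), Naca (0.44), Btf3 (0.41) and Nap1l1 (0.37) were also higher. After the third administration 4 of the 7 were higher: Hnrnpa1 (0.75), Npm1 (0.60), Nap1l1 (0.51) and Eef1d (0.30). These genes therefore include ones that rose where most members did not, such as Npm1 with 829, 703 and 829 normalized CPM in PBS-3 and 1222, 1197 and 1216 in 5FU-3 day 6.

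Of 24 regulators of TOP mRNAs and of ribosomal protein genes tested, among them Mtor, Larp1 and Myc, 0 were lower. After 1 administration 1 was higher (Cnbp, 0.22), and after the third 3 were (Larp4 at 0.54, Yy1 at 0.29 and Cnbp at 0.18). Cnbp and Larp4 had 2 or more curated transcripts and Yy1 had 1. Over all genes tested, 11.5% were higher and 10.6% lower after 1 administration, and 9.84% and 8.30% after the third. Against these shares the number of higher regulators did not stand out. Of 10 genes of the p53 pathway, 3 were higher after 1 administration, Zmat3 (1.49), Cdkn1a (1.44) and Phlda3 (1.18), and 2 lower, Ccng1 (−0.38) and Mdm4 (−0.30). After the third, 0 were higher and Ccng1 was lower (−0.40). Mdm2, which degrades p53, did not pass in either comparison (−0.18 and −0.19). Rps27l, itself a target gene of p53, was higher in both.

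Other features moved with the groups, and their part in the changes of the members was not tested. For the counts below, 11.5% of all genes tested were higher and 10.6% lower after 1 administration, and 9.84% and 8.30% after the third. Of 24 cell cycle genes, 15 were higher after 1 administration and 21 after the third, and 0 were lower, with summed levels of 2862–2954 CPM in PBS-1, 3643–3877 in 5FU-1 day 6, 2495–2884 in PBS-3 and 3795–4117 in 5FU-3 day 6. Of 8 megakaryocyte markers tested, 6 were lower after 1 administration and 3 after the third, with summed levels of 2344–2425, 1207–1324, 2058–2290 and 920–1065 CPM in the same order. Of the neutrophil and monocyte markers, 6 of 11 tested were lower after 1 administration and 2 of 10 after the third, and they summed to 108–160, 59.3–76.3, 94.7–134 and 49.5–74.2 CPM. Of 12 lymphoid markers, 6, 5, 7 and 4 were at 0 in the 4 groups, 1 of 3 tested was lower in each comparison, and the list summed to 53.8–61.4, 44.2–52.2, 63.6–69.5 and 47.1–50.4 CPM. Of 8 erythroid markers tested, 2 were higher and 1 lower after 1 administration, and 4 higher and 1 lower after the third. They summed to 53.1–70.4 and 128–151 CPM after 1 administration of PBS and 5-FU and to 53.8–69.0 and 73.1–117 CPM after 3. Of the 4 markers that HSC gating removes or keeps low, Cd48 was higher (0.82 and 1.90) and Flt3 and Cd34 lower in both comparisons. Of the 14 HSC markers, 3 were higher and 4 lower after 1 administration, and 1 higher and 6 lower after the third.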

How the data were processed

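The authors aligned single-end reads of 75 bases with TopHat2 2.0.13 to mm10, quantified with Cuffdiff of Cufflinks 2.2.1, and deposited whole-number counts per gene symbol, without normalization; cDNA came from the SMART-Seq v4 kit and libraries from Nextera XT. The counting program, and the treatment of duplicate and multiply aligned reads, are not given in the sources used here.

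Counts were analysed in R 4.3.3 with edgeR 4.0.16 (filterByExpr, TMM, quasi-likelihood F test, Benjamini-Hochberg adjustment over all genes kept, threshold 0.05). Each comparison used the 6 libraries of its groups, and the interaction 12. The SE of a log2 fold change was derived from the F statistic. Totals, from 22184885 to 38649033 counts, put a floor of 3 counts at 0.0776 to 0.135 CPM. Positions and transcript lengths came from GENCODE vM21 (GRCm38), and transcript numbers and promoter sequences from RefSeq (GRCm38.p6).

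Members and lists were chosen with earlier results of these data known. Named members were the 5 at either end of the fold changes in each 5-FU comparison at day 6 and the 3 at either end elsewhere, those departing alike in both day 6 comparisons, the 5 highest and lowest per kilobase, members of known function, and of other lists the 2 called genes with the largest change. The transcript classes, the Rps27l to Rps27 ratio, and the genes printed beyond this rule, were chosen after the values were seen. Values of some genes are not reported here.

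Alternatives were relative log expression, library size alone, TMM without or over members, other filters on low counts, DESeq2 1.42.0, replicate numbers entered as a block, a single fit of all 21 libraries, fits that left out a library and, added after seeing the data, genes with 2 or more curated transcripts alone and a ratio without Rps19. In a test on simulated data for 5FU-1 day 6 against PBS-1 with 12529 genes, 66.2% of 195 genes changed by 2-fold or 0.5-fold were recovered, and 7.86% of calls were false. Simulated counts grew in proportion to depth, and members changed by less, with a log2 fold change of at most 0.81 in that comparison. The recovered share therefore does not carry over to the members.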

Additional observations from a re-analysis of the deposited data

How the results depend on the processing

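Of 492 refits of the 33 called log2 fold changes, 421 kept direction and call, 71 kept the direction and lost the call, and 0 turned. Fits on genes with 2 or more curated transcripts shared 15 of the 17 calls of 5FU-1 day 6 against PBS-1 (the others are not of that kind), all 4 of 5FU-3 day 6 against PBS-3, 9 of 10 of 5FU-1 day 21 against day 6, where they added Rpl19, and both of 5FU-3 day 21 against day 6; in the interaction they gave 1 (Rps19, −0.42). The cause of the following moves was not tested.

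With library size alone, the median log2 fold change of all genes moved to −0.11 in 5FU-3 day 6 against PBS-3 and to 0.12 in 5FU-3 day 21 against day 6, with 807 genes higher and 1462 lower, and 1701 and 977 (1253 and 1057, and 1089 and 1361, with TMM); in 5FU-1 day 6 against PBS-1 the split was 1127 and 1623 (1470 and 1357 with TMM). Members higher were then 0 in the first of these and 5 in the second, members lower 1 in the second, members varying 6, and Rpl34 in 5FU-3 day 6 was at −0.08; it was also −0.04 without PBS-3 replicate 1 and −0.03 without 5FU-3 day 6 replicate 2 (−0.04 to 0.08 with any 1 library left out). DESeq2 gave 4 members higher in 5FU-3 day 6, 3 in 5FU-1 day 21 against PBS-1, 1 in 5FU-1 day 21 and 5 in 5FU-3 day 21 against day 6, 16 in PBS-3 against PBS-1, and 16 lower in the interaction. All 21 libraries in 1 fit gave 24 lower in 5FU-1 and 8 in 5FU-3 day 21 against day 6. At least 10 counts in every library gave 1 in the interaction. TMM over members gave 2 departing in 5FU-3 day 6, 1 in 5FU-1 and 5 in 5FU-3 day 21 against day 6, and 0 in PBS-3 against PBS-1.

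Same-numbered libraries showed no visible shared deviation: correlations of their deviations lay between −0.0599 and 0.0522. With 3 libraries a group this cannot exclude that the replicate numbers pair the samples. With the replicate block, members higher in 5FU-3 day 6 were 0, departing members 0 there, 2 in 5FU-3 day 21 against day 6 and 0 in PBS-3 against PBS-1; 6 called log2 fold changes lost their call.

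Without the 3 members with most counts the share was 0.611%, 0.729%, 0.601%, 0.677%, 0.635%, 0.625% and 0.669% in PBS-1, 5FU-1 day 6 and day 21, PBS-3, 5FU-3 day 6 and day 21, and old. In the same order the subunit ratio per kilobase was 1.10, 1.16, 1.01, 1.04, 1.15, 1.07 and 1.07, and without Rps19, with 2 or more curated transcripts, 1.71, 1.74, 1.59, 1.66, 1.79, 1.61 and 1.67.

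With 1 library left out, members higher in 5FU-1 day 6 numbered 10 to 18 and departing 2 to 6; in 5FU-3 day 6, 0 to 2 higher and 1 to 3 departing; in 5FU-1 day 21 against day 6, 6 to 42 lower and 3 to 7 departing; in 5FU-3 day 21 against day 6, 0 to 1 higher, 0 to 2 lower and 0 to 3 departing; in PBS-3 against PBS-1, 0 departing; in the interaction 0 to 2; members varying 2 to 5. Depth limits members with 1 curated transcript, whose counts hardly grew with it.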
